A study of Rattus norvegicus with 97 samples.

Results

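The serotonin receptors measured here were the 10 genes Htr1a, Htr1b, Htr1d, Htr2a, Htr2c, Htr3a, Htr4, Htr5b, Htr6 and Htr7, taken by symbol and with every probe set that carried one of these symbols. They had 17 probe sets, of 31042 probe sets and 14217 named genes on the array. RNA of the nucleus accumbens shell, the ventromedial part of the striatum, was hybridised from 97 rats to Affymetrix rat arrays, 1 array per animal. The rats came from 5 pairs of lines, and in each pair 1 line had been selected for alcohol preference and the other against it. The preferring lines were P, HAD1, HAD2, AA and sP, and their counterparts were NP, LAD1, LAD2, ANA and sNP. LAD1, sP and sNP had 9 animals each and the other lines 10. The labels give the line, the preference and an animal number, and neither age, sex nor alcohol exposure. Each line is 1 breeding population, so the animals of a line are replicates of that line and the 5 pairs are the replicates of the selected trait. Signals are log2 values made with RMA (robust multi-array average), and a difference of 1 is a doubling. Levels are compared between animals within a probe set and never between probe sets.

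Serotonin reaches the accumbens through fibres of the raphe nuclei, and the receptors on the cells of this region pass the signal on in several ways. The Htr1 receptors couple to inhibitory G proteins that lower cyclic AMP, the Htr2 receptors couple to Gq and release calcium from stores, and Htr4, Htr6 and Htr7 couple to Gs and raise cyclic AMP. Htr3a differs from all of these in that it forms a ligand-gated cation channel. Most neurons of the accumbens are GABAergic spiny projection neurons, which express several of these receptors, while other receptor mRNAs are better known from interneurons or from neighbouring regions. An array of dissected tissue reads the sum over all cells, so fewer cells of a type and less RNA per cell cannot be told apart.

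Of the 10 receptor genes, 6 had a promoter in the RefSeq table used here (build GRCr8), namely Htr1b, Htr1d, Htr2c, Htr5b, Htr6 and Htr7. Those of Htr1d and Htr2c are shown because these mRNAs varied together between animals, as described further on. Each run holds the 250 bases before the start of the gene, 5′ to 3′ on the gene's strand (plus for both), upstream of the annotated gene span. Capitals mark the GC box GGGCGG and the E-box CANNTG, searched on both strands. The Htr1d window lies at chr5:153939485-153939734 and the Htr2c window at chrX:115452940-115453189.
Htr1d: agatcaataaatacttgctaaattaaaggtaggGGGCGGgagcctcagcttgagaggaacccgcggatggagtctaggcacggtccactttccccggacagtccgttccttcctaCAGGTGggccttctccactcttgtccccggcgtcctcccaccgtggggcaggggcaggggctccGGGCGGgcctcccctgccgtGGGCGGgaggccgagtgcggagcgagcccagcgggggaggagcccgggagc
Htr2c: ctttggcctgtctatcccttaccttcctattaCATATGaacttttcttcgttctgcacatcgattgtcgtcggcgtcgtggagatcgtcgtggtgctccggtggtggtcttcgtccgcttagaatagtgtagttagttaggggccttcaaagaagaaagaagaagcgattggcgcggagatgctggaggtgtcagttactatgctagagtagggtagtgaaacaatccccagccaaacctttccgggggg
The Htr1d window held 3 GC boxes and 1 E-box, and 66.8% of its bases were G or C, more than in 86.6% of 27457 promoter windows. In the Htr2c window there were 0 GC boxes and 1 E-box, at 50.4% G and C, close to the median window (more than in 44.5%). A GC box was present in 32.4% of all windows and an E-box in 65.2%, and the boxes did not overlap. The TATA motif TATAAA, present in 13.1% of all windows, was in neither. These matches are descriptions of letters, not of bound sites.

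Before the receptors, 8 arrays need naming because they lay away from their own line on the 50 probe sets that best separated the lines of their pair in the other animals. They were P 9, NP 9, HAD1 28, LAD1 37, AA 19, ANA 20, sP 4 and sNP 4. A score on these probe sets was 0 at the non-preferring and 1 at the preferring line. HAD1 28 (0.02), AA 19 (0.06), LAD1 37 (0.99), ANA 20 (0.88) and NP 9 (1.04) lay at or near the opposite line of their pair. P 9 (0.42), sP 4 (0.40) and sNP 4 (0.47) lay between the lines. HAD1 28 also correlated best with the LAD1 arrays and LAD1 37 with the HAD1 arrays. Over all probe sets AA 19 correlated best with the sP arrays (mean r = 0.995, against 0.979 with its own line) and ANA 20 with the sNP arrays (0.996 against 0.986). Every result below uses the 97 arrays, and values without these 8 follow where a call rests on them. Array medians ranged from 7.82 to 8.02. The difference between the Gapdh 3′ and 5′ control probe sets, which widens as RNA is degraded or shortened in labelling, was 4.19 to 5.38 in HAD1 and LAD1, 2.3 to 3.60 in HAD2 and LAD2, and -0.06 to 0.80 in the other 6 lines. The labels name no batch, so line pair and array processing cannot be told apart.

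The first question was how the receptor mRNAs were distributed over the 10 lines. Their levels differed more between line pairs than between the lines of a pair. In all 17 probe sets the range of the 5 pair means was larger than the largest difference between the lines of any pair. This was the case for 95.9% of all probe sets on the array, so it is not a result about the receptors. The range of the pair means was 0.37 to 1.90 with a median of 0.71, the same as the median over all probe sets (0.71). Htr1b, Htr3a, Htr5b and the Htr7 probe set 1369119_a_at were the 4 members above the upper quartile of that range (1.08). All 4 had their lowest pair mean in HAD1/LAD1, where the Gapdh difference was largest. The other members varied in their lowest pair, and Htr2c 1376980_at had its highest pair mean in HAD1/LAD1. The share of all probe sets lowest in that pair was not counted, and a cause was not tested.

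**Figure D1:**
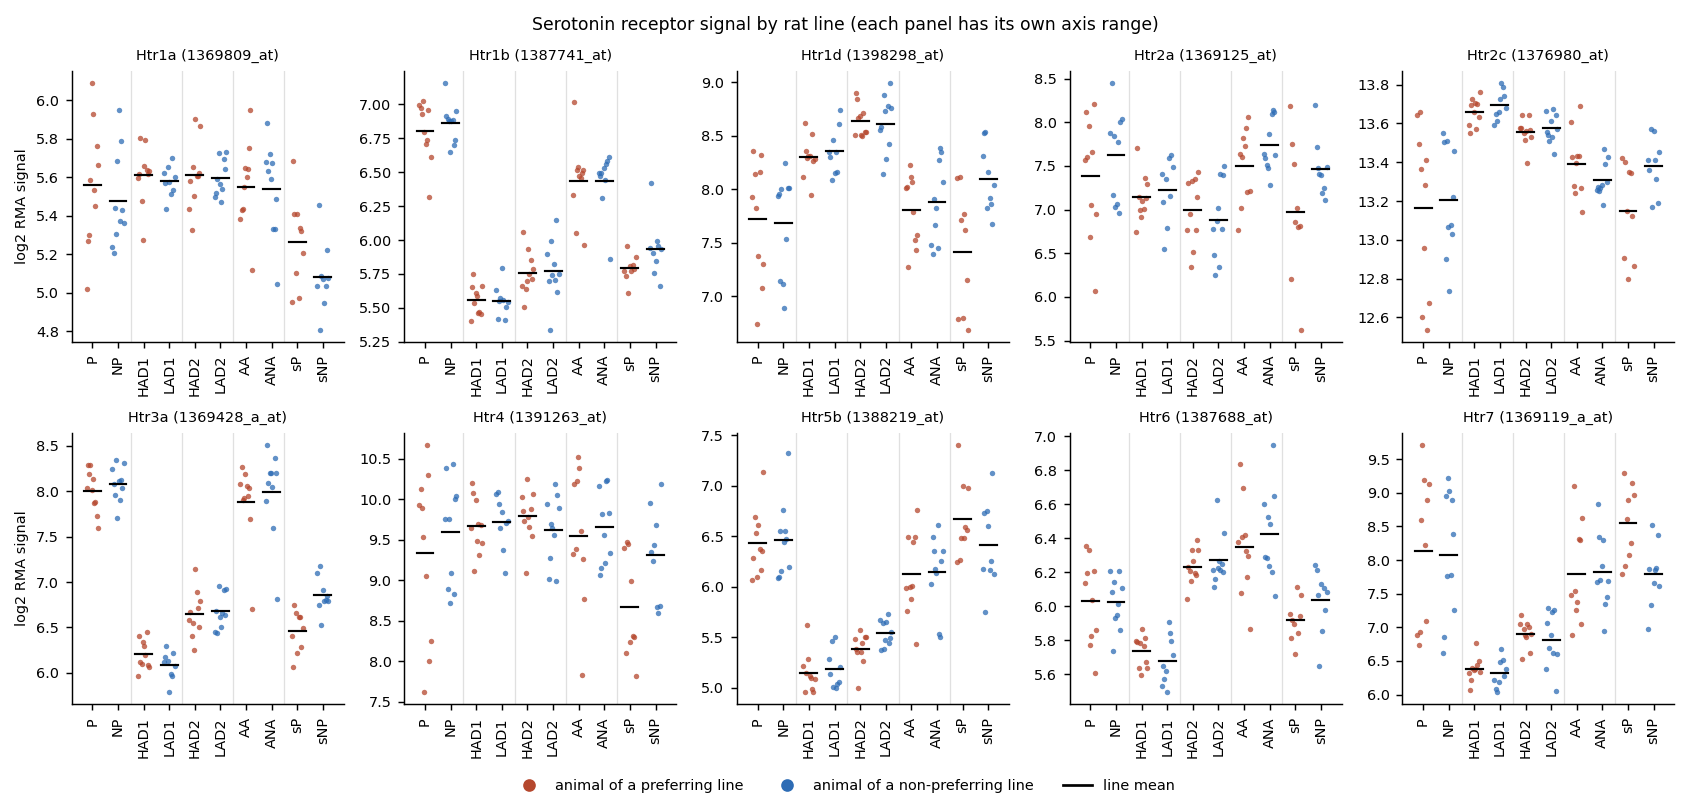
Log2 RMA signal (vertical axis) of the brightest probe set of each receptor gene in the 10 lines (horizontal axis). Points are animals, red for preferring and blue for non-preferring lines, black bars are line means, and grey lines part the line pairs. Line means of Htr3a lay between 7.88 and 8.08 in P, NP, AA and ANA and between 6.08 and 6.86 in the other 6 lines.

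Among the receptors coupled to inhibitory G proteins, Htr1a, known as the autoreceptor on raphe cell bodies and as a postsynaptic receptor in limbic regions, had line means between 5.08 ± 0.18 (SD, n = 9) in sNP and 5.61 ± 0.15 (SD, n = 10) in HAD1. No neighbours in the order of its 10 line means differed by more than the larger SD. Htr1b, a presynaptic receptor that spiny neurons send to their axon terminals, was highest in NP with 6.86 ± 0.14 (SD, n = 10) and lowest in LAD1 with 5.55 ± 0.11 (SD, n = 9). The order of Htr1b broke in 3 places beyond the larger SD, between P and AA (0.37), between ANA and sNP (0.50) and between HAD2 and HAD1 (0.20). Its levels thus fell into blocks made of whole line pairs. Htr1d, a close relative of Htr1b that also sits on terminals, was highest in HAD2 with 8.64 ± 0.15 (SD, n = 10) and lowest in sP with 7.42 ± 0.57 (SD, n = 9), with no step beyond the larger SD.

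For the Gq-coupled receptors, the Htr2c probe set 1376980_at ranged from 13.15 ± 0.24 (SD, n = 9) in sP to 13.70 ± 0.08 (SD, n = 9) in LAD1. Htr2c, whose pre-mRNA is edited at several adenosines, had a second probe set, 1369860_a_at, with line means from 6.59 in LAD1 to 7.55 in AA. LAD1 was thus the highest line for one Htr2c probe set and the lowest for the other. Within lines both followed each other (r = 0.66 over 97 arrays). Htr2a, the receptor through which classical hallucinogens act, had 4 probe sets that agreed poorly, with r between -0.07 and 0.36 for the 6 pairs of probe sets. Its probe set 1369125_at had line means from 6.88 ± 0.45 (SD, n = 10) in LAD2 to 7.73 ± 0.30 (SD, n = 10) in ANA. The probe sets 1369124_at and 1387752_s_at were instead lowest in the sP and sNP lines, with steps of 0.38 and 0.58 to the next line.

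The ion channel subunit Htr3a showed the widest range of pair means of any member, 1.90. Its line means ran from 8.08 ± 0.20 (SD, n = 10) in NP to 6.08 ± 0.15 (SD, n = 9) in LAD1, with a gap of 1.03 between AA, the lowest of the upper 4 lines, and sNP. A smaller step of 0.25 parted sP from HAD1. In that upper block the exceptions were AA 19 at 6.70 and ANA 20 at 6.82, within the range of the sP and sNP arrays (6.07 to 7.17).

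The Gs-coupled receptors did not share one pattern. Htr4 had line means for 1391263_at between 8.67 ± 0.65 (SD, n = 9) in sP and 9.79 ± 0.32 (SD, n = 10) in HAD2, and the P animals alone spread from 7.62 to 10.67. Htr6, a receptor known for its high mRNA level in the striatum, ran from 5.68 ± 0.14 (SD, n = 9) in LAD1 to 6.43 ± 0.26 (SD, n = 10) in ANA. Htr7, known mainly from thalamus, hypothalamus and hippocampus, ran for 1369119_a_at from 6.32 ± 0.21 (SD, n = 9) in LAD1 to 8.55 ± 0.56 (SD, n = 9) in sP. The Htr7 order broke between sNP and HAD2 (0.88) and between LAD2 and HAD1 (0.43). The other 2 Htr7 probe sets had ranges of line means of only 0.50 each. The _a_at suffix marks probe sets that can read several transcripts of one gene, and Htr7 is known to be spliced into isoforms with different tails. Htr5b, a receptor whose human counterpart is a pseudogene, ran from 5.15 ± 0.20 (SD, n = 10) in HAD1 to 6.67 ± 0.38 (SD, n = 9) in sP.

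**Figure D2:**
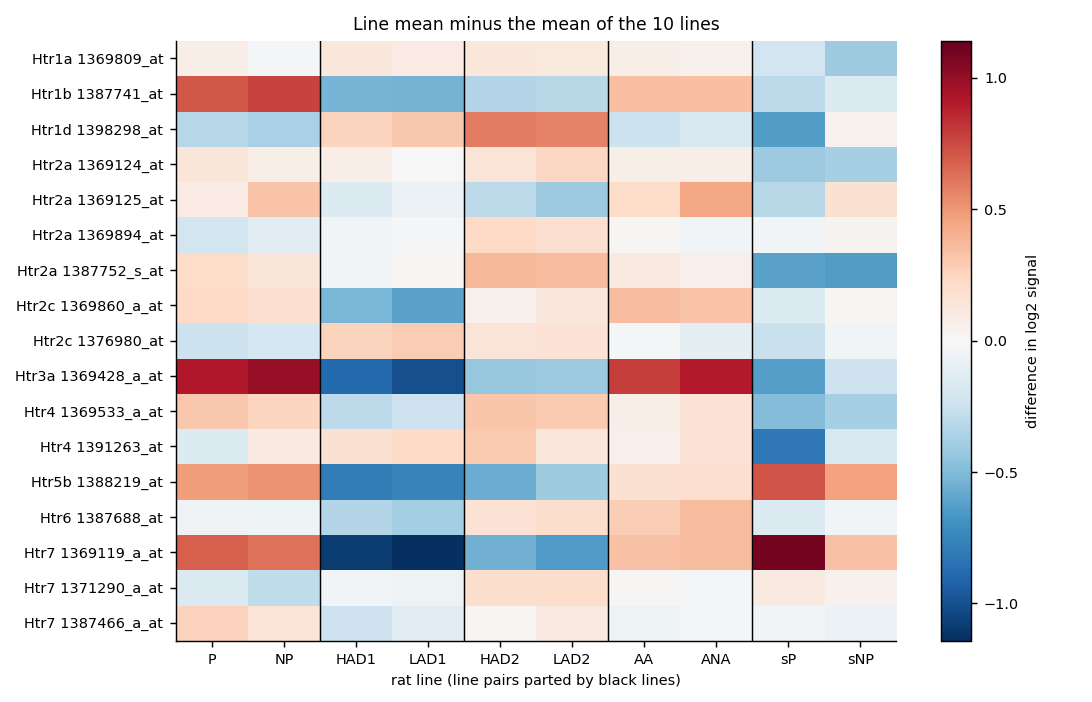
Line mean of each of the 17 receptor probe sets minus the mean over the 10 lines, as colour (red higher, blue lower, in log2 units), with lines across and probe sets down. Htr1b, Htr3a, Htr5b and Htr7 1369119_a_at show the strongest contrasts between pairs, and the sP and sNP columns differ visibly for Htr1d (7.42 and 8.10) and Htr7 1369119_a_at (8.55 and 7.79).

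The second question was which receptors differed between the preferring and the non-preferring line of a pair. In 4 of the 5 pairs no receptor was called by limma at a Benjamini-Hochberg adjusted p under 0.05 over 31042 probe sets. In P/NP 0 of 17 receptor probe sets were called, where 1.05% of all probe sets were, and 1 of 17 had an unadjusted p under 0.05 (lowest adjusted p 0.463, limma). For HAD1/LAD1 the count was 0 of 17 against 1.2% of all probe sets, with 0 at an unadjusted p under 0.05 (lowest adjusted p 0.540, limma). For HAD2/LAD2 it was 0 of 17 against 4.6%, with 1 at an unadjusted p under 0.05 (lowest adjusted p 0.245, limma). For AA/ANA it was 0 of 17 against 2.35%, with 0 at an unadjusted p under 0.05 (lowest adjusted p 0.786, limma). At such background shares 17 probe sets would hold few calls, so these counts do not set the receptors apart.

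The widths of the 95% intervals say how large a difference in array signal could have gone unseen. In HAD1/LAD1 and HAD2/LAD2 all 17 intervals lay within 0.5 log2 of 0, the farthest bounds being 0.37 for Htr2a and 0.48 for Htr4. These lines had the widest Gapdh differences, so their narrow intervals bound the signal and need not bound the mRNA level. In AA/ANA all 17 lay within 1 log2 and 13 within 0.5. In P/NP 16 lay within 1, and the exception was Htr4 1391263_at with a difference of -0.25 and a bound of -1.02. P and NP animals varied widely among themselves. Htr7 1369119_a_at was 6.74, 8.41 and 9.71 in the lowest, median and highest P animal and 6.62, 8.09 and 9.23 in NP. These values overlapped over nearly their whole range, and the P minus NP difference was 0.06 ± 0.44 (SE).

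sP and sNP were the pair with receptor differences, and also the pair with the most differences on the whole array. Htr1d and Htr3a were lower in sP and the Htr7 probe set 1369119_a_at was higher. These were 3 of 17 probe sets, or 17.6%, against 12.9% of all 31042. Lower in sP were 2 of 17, where 5.83% of all probe sets were, and higher was 1 of 17, where 7.08% were. At an unadjusted p under 0.05 there were 5 of 17, or 29.4%, against 30.3% of all probe sets. The share called is thus near the background and is not a result about the receptors as a group. The median difference of the 17 was -0.11, against 0.00 over all probe sets, and the median size without sign was 0.17 against 0.08.

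Htr1d signal was 6.69, 7.62 and 8.11 in the lowest, median and highest of 9 sP animals. In the 9 sNP animals it was 7.68, 8.04 and 8.54. The lines overlapped, although 5 sP animals lay below every sNP animal and 4 sNP animals lay above every sP animal. The sP minus sNP difference was -0.68 ± 0.20 (SE), a 1.6-fold lower signal in sP, with a 95% interval of -1.09 to -0.27 and an adjusted p of 0.0359 (limma, Benjamini-Hochberg). In the other pairs the Htr1d difference was 0.04 in P/NP, -0.05 in HAD1/LAD1, 0.02 in HAD2/LAD2 and -0.08 in AA/ANA, none of them called.

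Htr3a signal was 6.07, 6.49 and 6.74 in the lowest, median and highest sP animal and 6.53, 6.81 and 7.17 in sNP. It came closest of the receptors to separating the lines: 8 of 9 sNP animals lay above every sP animal. The Htr3a probe set was among the dim ones that a brightness filter left out, as described further on. The difference was -0.40 ± 0.09 (SE), 1.3-fold lower in sP, with a 95% interval of -0.59 to -0.20 and an adjusted p of 0.0168 (limma, Benjamini-Hochberg). The Htr3a call held whichever of the 18 animals was left out (differences of -0.44 to -0.35). Elsewhere the Htr3a difference was -0.08 in P/NP, 0.12 in HAD1/LAD1, -0.02 in HAD2/LAD2 and -0.11 in AA/ANA, with no call.

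Htr7 signal on 1369119_a_at was 7.79, 8.61 and 9.30 in the lowest, median and highest sP animal and 6.98, 7.85 and 8.53 in sNP. Of the sP animals 5 of 9 lay above all sNP animals, and 4 of 9 sNP animals lay below all sP animals. The difference was 0.76 ± 0.22 (SE), 1.7-fold higher in sP, with a 95% interval of 0.29 to 1.2 and an adjusted p of 0.0370 (limma, Benjamini-Hochberg). The other 2 Htr7 probe sets differed by 0.05 ± 0.05 and 0.04 ± 0.05 (SE) and were not called, so the call rests on 1 of 3 probe sets. In the other pairs the difference of 1369119_a_at was 0.06 in P/NP, 0.06 in HAD1/LAD1, 0.10 in HAD2/LAD2 and -0.03 in AA/ANA.

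The Htr1d and Htr7 calls were near the threshold. Htr1d kept its call in 10 of the 18 fits that each left out 1 animal, with differences of -0.77 to -0.59 and adjusted p-values (limma) from 0.0158 to 0.0762. It was lost without sP 2, 5, 8 or 9 or without sNP 1, 3, 5 or 9. On a marker index described further on, these sP animals were the lowest of sP and these sNP animals the highest of sNP. In each of the fits without 1 of these animals only 1031 to 1319 of all probe sets were called, against 4006 with all 18 animals. Calls were thus lost over the whole array. Htr7 kept its call in 9 of 18, with differences of 0.66 to 0.85 and adjusted p-values (limma) from 0.0173 to 0.0782, and was lost without any of the same animals or without sNP 6. In the fit over all 97 animals the adjusted p (limma) of Htr7 was 0.0756. Without sP 4 and sNP 4, 15% of all probe sets were called and the 3 receptors remained called, Htr1d at -0.75, Htr3a at -0.47 and Htr7 at 0.84.

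Receptors that missed the call in sP/sNP are given by value. Htr2c 1376980_at was 12.80, 13.15 and 13.42 in the lowest, median and highest sP animal and 13.17, 13.41 and 13.57 in sNP, a difference of -0.23 ± 0.09 (SE; adjusted p 0.0875, limma). Htr4 1391263_at was 7.82, 8.31 and 9.47 in sP and 8.60, 9.35 and 10.19 in sNP, a difference of -0.64 ± 0.26 (SE; adjusted p 0.109, limma). Their intervals were -0.42 to -0.04 and -1.19 to -0.08, and in both 5 sP animals were below every sNP animal. The Htr2a probe set 1369125_at differed by -0.49, with an interval of -1.03 to 0.04, while its other 3 probe sets lay between -0.07 and 0.02. The second probe sets of Htr2c (1369860_a_at) and Htr4 (1369533_a_at) differed by -0.17 and -0.11. The remaining differences in sP/sNP were 0.18 for Htr1a, -0.14 for Htr1b, 0.26 for Htr5b and -0.12 for Htr6.

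The same genes in the other pairs gave small values with intervals that mostly covered 0. Htr1a differed by 0.08 in P/NP, 0.03 in HAD1/LAD1, 0.01 in HAD2/LAD2 and 0.01 in AA/ANA. Htr1b differed by -0.06, 0.00, -0.01 and 0.00 in that order of pairs. The Htr2a probe set 1369125_at differed by -0.23, -0.09, 0.11 and -0.24, and Htr2c 1376980_at by -0.04, -0.04, -0.02 and 0.08. Htr4 1391263_at differed by -0.25, -0.05, 0.16 and -0.11 and Htr6 by 0.01, 0.06, -0.04 and -0.08. For Htr5b the values were -0.03, -0.04, -0.16 and -0.02, and that of HAD2/LAD2 had an interval of -0.29 to -0.02 with an adjusted p of 0.245 (limma). The Htr7 probe set 1371290_a_at was the other exception, at 0.12 with an interval of 0.02 to 0.23 in P/NP and an adjusted p of 0.463 (limma).

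**Figure D3:**
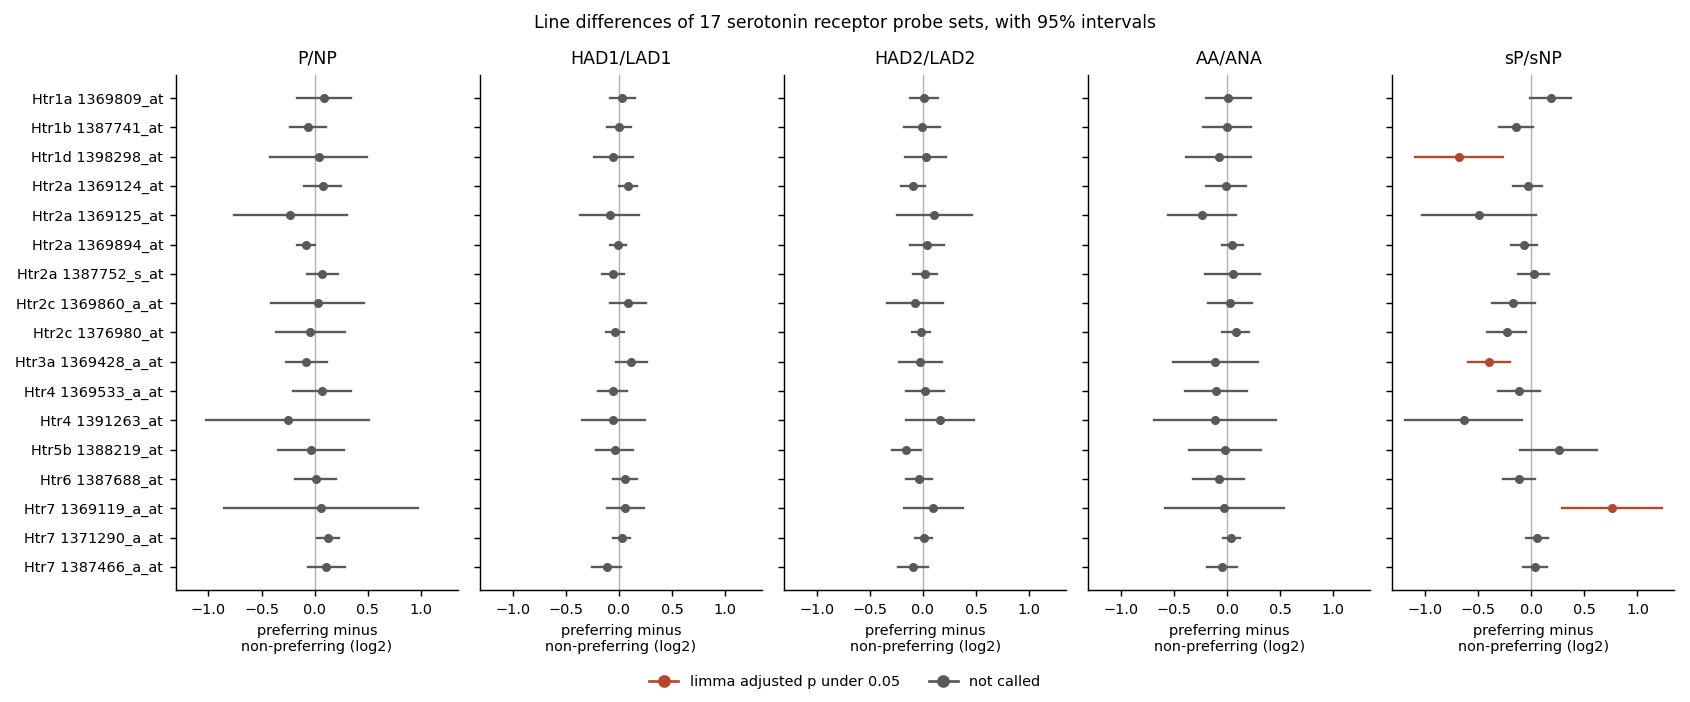
Preferring minus non-preferring difference in log2 signal (horizontal axis) of the 17 receptor probe sets (rows) in each of the 5 line pairs (panels). Points are differences and bars their 95% intervals, red where the limma adjusted p was under 0.05. The 3 red intervals are all in sP/sNP, and the intervals of the HAD1/LAD1 and HAD2/LAD2 panels are the narrowest in the median.

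The third question was whether a receptor differed the same way over the 5 pairs. None did by the tests run. For the unweighted average of the 5 differences, 0 of 17 receptors were called where 3.37% of all probe sets were, with 2 at an unadjusted p under 0.05 (lowest adjusted p 0.108 in limma, for Htr7 1371290_a_at at 0.05). Taking each pair's difference of line means as 1 replicate (n = 5), limma called 0 of 17 receptors and 0% of all 31042 probe sets, with 0 receptors at an unadjusted p under 0.05. The average of the 5 differences was 0.06 ± 0.04 (SE) for Htr1a and 0.05 ± 0.02 (SE) for Htr7 1371290_a_at, positive in all 5 pairs for both, and neither was called. The test that the 5 differences are equal called 0 of 17 receptors, where it called 11.7% of all probe sets, and Htr1d was the 1 receptor at an unadjusted p under 0.05 (adjusted p 0.116, limma F test). A difference between sP/sNP and the other pairs was therefore not shown with all arrays. Without the 8 departing arrays 17.5% of all probe sets were called, and 2 of 17 receptors, Htr1d (adjusted p 0.0427) and Htr3a (0.0259, limma F test). These arrays were found from line differences, so the higher count is not independent evidence.

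Markers of cell types moved with the sP and sNP receptor differences. Over all probe sets 5.83% were called lower and 7.08% higher in sP. Of 22 probe sets of 11 spiny neuron markers 19 were lower in sP and 0 higher, with a median difference of -0.92. Among them Drd2, the dopamine receptor of the indirect pathway, differed by -1.0 ± 0.29 (SE), Pdyn, which encodes the dynorphin precursor, by -0.70 ± 0.20, and the spiny neuron transcription factors Foxp1 and Bcl11b by -0.93 ± 0.26 and -0.83 ± 0.21. The mean of the spiny markers was 10.52 to 12.56 in sP and 11.92 to 12.81 in sNP. Septal, pallidal and basal forebrain markers averaged 7.85 to 8.57 in sP and 7.34 to 8.15 in sNP, and 1 of their 6 probe sets, Zic1, was called, at 0.25. The marker index, the spiny mean minus that second mean, was 2.06 to 4.71 in sP and 3.81 to 5.46 in sNP. It was lowest in a P array (-0.06). The animals without which the Htr1d call was lost lay at its ends. Among sP arrays, sP 2, 5, 8 and 9 had the lowest values (2.06 to 2.91). Among sNP arrays, sNP 1, 3, 5 and 9 had the highest (5.00 to 5.46).

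Receptor levels followed this index between animals. Deviations of each animal from its line mean were correlated over the 97 arrays, with 100000 permutations within lines and p-values adjusted over the 17 relations. The relation passed an adjusted p of 0.05 in 14 of 17 probe sets, positive in 10 and negative in 4. The same test was not run on the other probe sets of the array, so this count does not set the receptors apart. Htr2c 1376980_at had r = 0.84 and rho = 0.73, Htr1d r = 0.84 and rho = 0.83, Htr4 1391263_at r = 0.76 and rho = 0.76, and Htr2a 1369125_at r = 0.70 and rho = 0.68 (permutation p = 1e-05 for each, adjusted p = 2.1e-05, the smallest these permutations can give). Htr7 1369119_a_at ran the other way with r = -0.89 and rho = -0.90 (permutation p = 1e-05, adjusted p = 2.1e-05), as did Htr1a (r = -0.53, rho = -0.46) and Htr5b (r = -0.43, rho = -0.55), with adjusted permutation p-values of 3.8e-05 and 6.8e-05. Receptors of one G-protein class therefore lay on both sides, Htr1d and Htr1a among those coupled to Gi and Htr4 and Htr7 among those coupled to Gs.

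Within the single line pairs Htr7 kept its sign in all 5, from r = -0.93 in AA/ANA to -0.71 in HAD1/LAD1, and Htr1d kept its sign with 0.58 to 0.95. Htr4 ran from 0.38 to 0.92 and Htr2a 1369125_at from 0.45 to 0.85. Htr2c was less even, with 0.92 in P/NP and in sP/sNP but -0.28 in HAD1/LAD1, where the index varied little (4.79 to 5.64). Htr1a also depended on the pair, with -0.87 in P/NP, -0.53 in sP/sNP and 0.23 in HAD2/LAD2. Htr3a followed the index less closely, with r = 0.32 and rho = 0.40 over all arrays (permutation p = 0.00072, adjusted p = 0.001), and with 0.70 in sP/sNP. Without P 5 and P 9, the arrays farthest from the median, r was -0.90 for Htr7, 0.83 for Htr1d, 0.81 for Htr2c, 0.71 for Htr4 and 0.35 for Htr3a.

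With the index as a covariate none of the 3 receptors was called in sP/sNP, where 1.02% of all probe sets were. The Htr1d difference then was -0.06 (adjusted p 0.999, limma), that of Htr3a -0.19 (0.708) and that of Htr7 0.09 (0.999). The index itself differs between these lines, and the part of the cell mixture in the receptor differences was not tested. The Gapdh 3′ minus 5′ difference was 0.31 to 0.48 in sP and 0.32 to 0.80 in sNP. With it as a covariate 2.78% of all probe sets were called. The adjusted p-values (limma) then were 0.0958 for Htr1d, 0.0513 for Htr3a and 0.10 for Htr7. Choroid plexus, the ventricular tissue rich in Htr2c, was also followed: its marker mean was 5.84 to 6.17 in sP and 5.97 to 6.21 in sNP, and 0 of its 9 probe sets were called in any pair. Its marker Ttr nevertheless ran from 6.0 to 11.68 over single arrays. The serotonergic markers Fev and Slc6a4, whose transcripts are made in raphe cell bodies, ranged from 5.09 to 6.50 and from 4.76 to 5.82 over the arrays, and 0 of 6 probe sets of their list were called in any pair.

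**Figure D4:**
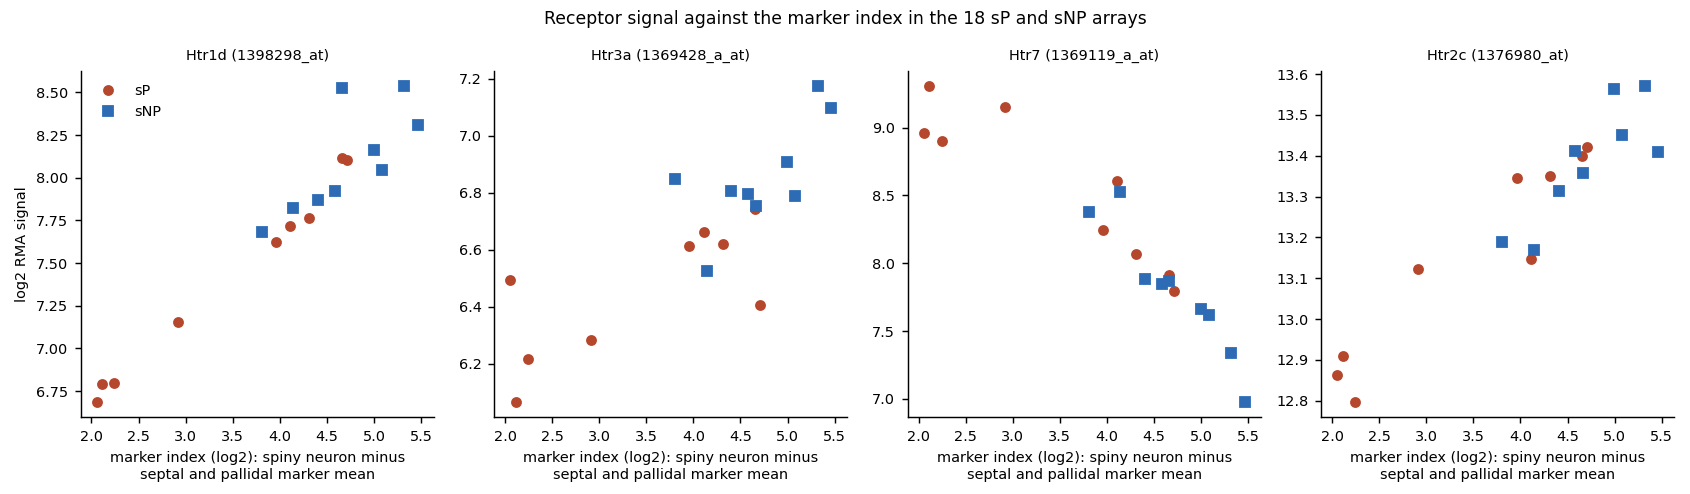
Log2 signal of Htr1d, Htr3a, Htr7 and Htr2c (vertical axes) against the marker index in log2 units (horizontal axis) in the 9 sP (red circles) and 9 sNP (blue squares) arrays. Htr1d and Htr2c rise and Htr7 falls along the index over the pooled deviations of both lines (r = 0.95, 0.92 and -0.89). No r was computed for each line alone. Several sP arrays lie at index values below the lowest sNP array at 3.81.

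Between receptors, Htr1d varied with Htr2a (r = 0.74), Htr4 (0.71) and Htr2c (0.70) over the 97 deviations, and against Htr7 (-0.74). These values share the arrays and the marker index, and are descriptions. Over the same deviations the probe sets most like Htr7 were those of the amino acid transporter Slc7a3 (r = 0.95), Phlda3 (0.95) and Apeg3 (0.95). For Htr1d they were Arel1 (0.90), Smpd3 (0.88) and Tomm70 (0.88), and for Htr2c the transcription factor Mef2a (0.88), the calcium channel subunit Cacna2d3 (0.87) and Smpdl3b (0.87). Htr4 was most like the adrenergic receptor Adra2b (0.89), the muscarinic receptor Chrm4 (0.87) and the transcription factor Foxp2 (0.84). Htr2a was most like Enc1 (0.83), the kinase Jak2 (0.83) and Rasgrp1 (0.82), and Htr3a like Clp1 (0.76), Stim1 (0.76) and Thap11 (0.72). Lower values were found for Htr1a with Osbpl1a, Clstn3 and Sncb (0.70 to 0.72), for Htr1b with Hddc2, Rap2b and Mto1 (0.68 to 0.73) and for Htr5b with Slc25a18, Tcf7l2 and Pals2 (0.66 to 0.69). Htr6 was most like the Htr4 probe set 1369533_a_at (0.69), Kcng3 (0.69) and Sulf1 (0.66).

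Other genes of the pathway were taken from 6 lists. Of the 4 further receptor genes Htr1f, Htr2b, Htr3b and Htr5a with 5 probe sets, 1 was called in 1 pair: Htr1f, another Gi-coupled receptor, was 6.56 in sP and 7.34 in sNP, a difference of -0.79 ± 0.17 (SE; adjusted p 0.0087, limma). In the remaining pairs Htr1f differed by 0.14, -0.14, 0.12 and -0.21, with no call. In the list of serotonin synthesis, storage, uptake and breakdown, 15 probe sets of 11 genes, 2 were higher and 1 lower in sP and 2 were lower in HAD2. Over all probe sets 12.9% were called in sP/sNP and 4.6% in HAD2/LAD2. Whether any of the 6 lists exceeded these shares was not tested. Qdpr, which regenerates the cofactor of tryptophan hydroxylase, differed by 0.73 ± 0.13 (SE) in sP/sNP and by -0.45 ± 0.10 in HAD2/LAD2, called in opposite directions. Slc22a3, a low-affinity monoamine transporter, was higher in sP by 1.03 ± 0.27. Ddc, the decarboxylase that makes serotonin, differed by -0.17 ± 0.05 in sP/sNP and -0.39 ± 0.07 in HAD2/LAD2 on 1 of its 2 probe sets.

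Partners of the receptors inside the cell gave calls in both directions in sP/sNP, where 12.9% of all probe sets were called. None of 15 probe sets of 8 Gi and Go partner genes was called in any pair with all arrays. Without the departing arrays 1 of the 15 was called in sP/sNP, where 15% of all probe sets were. Of 13 probe sets of 9 Gq partners 2 were higher and 4 lower in sP: the phospholipases Plcb4 and Plcb1 differed by 0.76 and -0.20, the inositol trisphosphate receptor Itpr1 by -0.94 and the kinase Prkcb by -0.44. Of 15 probe sets of 9 Gs partners 4 were higher and 4 lower in sP. Against 4.6% of all probe sets called in HAD2/LAD2, 1 of the 15 was higher and 1 lower in HAD2. Gnal, the olfactory type of Gs that prevails in the striatum, differed by -0.57 ± 0.16 (SE) and Gnas, its ubiquitous relative, by 0.46 ± 0.13. The cyclases behind them differed likewise, striatal Adcy5 by -0.85 and Adcy8 by 0.93. In HAD2/LAD2 the cyclase Adcy9 differed by 0.59 and Prkacb, a catalytic subunit of protein kinase A, by -0.34.

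Proteins that bind, sort or edit the receptors made up the last list, 28 probe sets of 14 genes. Of these 4 were higher and 2 lower in sP, against 12.9% of all probe sets called in sP/sNP. The channel chaperone Ric3 differed by 0.30, the sorting nexin Snx27 by 0.23 and the scaffold Dlg4 by -0.33. Fyn, a kinase that binds Htr6, differed by -0.35 on one probe set and was called in the opposite direction on its other. The median sP minus sNP difference was -0.14 for the further receptors, -0.01 for serotonin synthesis and breakdown, 0.00 for the Gi and Go partners, 0.03 for the Gq partners, -0.07 for the Gs partners and 0.05 for the binding proteins, beside 0.00 over all probe sets. With all arrays, no probe set of these 6 lists was called in P/NP, HAD1/LAD1 or AA/ANA. Without the departing arrays, 3 of 15 probe sets of serotonin synthesis and breakdown were called in HAD1/LAD1. In AA/ANA 4 of the 28 of the last list were then called. Of the 15 Gs partner probe sets 1 was then called in P/NP and 1 in HAD1/LAD1. The share of all probe sets called also rose in each of these pairs. Whether the lists exceeded it was not tested.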

How the data were processed

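Each of the 97 arrays reads 1 animal. Per the labels' protocols, total RNA was amplified in 2 cycles and labelled with biotin. The deposited values are log2 signals that the authors summarised with RMA, per the submitters' processing notes. The RMA version and whether all arrays were summarised together are not given in the sources used here. RMA gives no detection call, and the number of arrays limits the precision.

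Members and lists were chosen with earlier results of these data known. The 57 control probe sets were left out, and 31042 were tested with limma 3.58.1 in R 4.3.3 (lmFit, eBayes, two-sided), tested on simulated data first. P-values were adjusted by Benjamini-Hochberg over all 31042, and a call is an adjusted p under 0.05. Each pair had its own fit, while a fit with 1 mean per line gave the average and the equality test. P-values measure the spread between animals of a line.

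Every member probe set is given by its values, its range or its count; other named genes were up to 4 called genes per list and pair, and the 3 probe sets most like each member at r of 0.6 or more. The lists were 6 of the pathway (55 of 60 genes measured) and 11 of cell type markers. Alternatives were array centring, quantile normalization, eBayes with trend, a filter on dim probe sets, covariates, all 97 animals in 1 fit, a replicate block, and leaving out animals, line pairs or departing arrays (label score more than 0.3 from the own line).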

Additional observations from a re-analysis of the deposited data

Results flagged for a closer look

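In 13 of 170 groups, each 1 receptor probe set in 1 line, a single animal stood apart from the rest by Dixon's criterion. Chance gives about 1 in 20, or 8.5 of 170. AA 19 and ANA 20, whose arrays were most like the sP and sNP arrays, made up 6 of the 13. AA 19 was low for Htr3a (6.70, the other AA animals at 7.69 to 8.27), for Htr2a 1369124_at (5.29, others from 5.67) and for Htr2a 1387752_s_at (4.93, others from 5.63). ANA 20 was low for Htr1b (5.86, others from 6.31), Htr2a 1387752_s_at (4.83, others from 5.62) and Htr4 1369533_a_at (5.85, others from 6.43).

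High single animals were sNP 2 for Htr1b (6.42, others up to 5.99), LAD2 20 for Htr2a 1369124_at (6.24, others up to 6.0), LAD1 35 for Htr2a 1369894_at (4.56, others up to 4.42), sP 3 for Htr4 1369533_a_at (6.27, others up to 5.86), HAD1 24 for Htr5b (5.62, others up to 5.28) and HAD1 29 for Htr7 1387466_a_at (5.48, others up to 5.17). HAD2 7 was low for Htr2c 1376980_at (13.39, others from 13.51). None of these values belongs to a probe set that was called in its own line pair.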

How the results depend on the processing

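Of 688 recomputed differences and counts, those that leave out 1 animal aside, 677 were scored the same, 7 lost a call, 4 counts moved and 0 reversed. Scored the same were differences that kept their side of the threshold and counts that changed little or not. One such count was that of sP/sNP in the fit over all 97 animals, which fell from 3 to 2. Most of the recomputed values, 602, were differences not called to begin with. In sP/sNP the count of 3 receptor calls became 1 with brighter probe sets only, 0 with the Gapdh difference as covariate and 0 with the marker index as covariate. It lay between 1 and 4 when single animals were left out. The share of all tested probe sets that were called moved too, from 12.9% to 27.2%, 2.78% and 1.02% in that order. Leaving out single animals gave 1031 to 5821 calls over all probe sets. These counts therefore do not set the receptors apart. The filter on dim probe sets left only 3 of the 17 probe sets to test, and those of Htr3a and Htr7 were not among them. With the Gapdh covariate Htr1d differed by -0.60, Htr3a by -0.37 and Htr7 by 0.63; the cause was not tested. The equality test called 2 receptors without the departing arrays. Among 602 recomputed differences that were not called, 28 changed sign, 7 of them among the 14 of sP/sNP with the marker index as covariate, so the signs printed for uncalled differences are not directions. Animal numbers are shared by P and NP and by sP and sNP. Deviations of same-numbered animals had an r over 0.1 in 6 of 10 and 5 of 9 cases, with medians of 0.34 and 0.11. The values ran from -0.59 to 0.77 in P/NP and from -0.22 to 0.56 in sP/sNP. The labels do not say what an equal number means, and the numbers were not taken as pairs in the main fits. With the animal number as replicate block 0 receptors were called in P/NP and 3 in sP/sNP, while 5035 of all probe sets were called in sP/sNP. The number of animals limits what could be seen, as the intervals show.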

Other observations

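Other cells of the region can carry serotonin receptors, and their markers were followed in the same fits. The counts for sP/sNP stand beside 12.9% of all probe sets called there. In sP/sNP, 2 of 7 probe sets of the Sst, Npy and Pvalb interneuron list were higher in sP and 1 lower: Pvalb, a calcium buffer of fast-spiking cells, differed by 1.07 ± 0.31 (SE), the potassium channel Kcnc1 by 0.73 ± 0.20 and Npy by -0.34 ± 0.11. Of 7 probe sets of Vip, Reln and Cck interneuron markers, the class best known for Htr3a, 1 was called, Calb2 at 0.54 ± 0.18. Its direction was opposite to that of Htr3a in the same animals. None of 5 cholinergic, 6 cortical glutamatergic, 6 serotonergic or 9 microglial probe sets was called in sP/sNP.

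Glial markers differed in several pairs, with and without called receptors. Of all probe sets 1.05% were called in P/NP, 1.2% in HAD1/LAD1, 4.6% in HAD2/LAD2, 2.35% in AA/ANA and 12.9% in sP/sNP. In HAD2/LAD2, 4 of 11 oligodendrocyte probe sets were lower in HAD2, with Mbp at -0.28 ± 0.06 (SE), Mobp at -0.30 ± 0.07, Opalin at -0.50 ± 0.13 and Ermn at -0.41 ± 0.11, whereas 3 of 11 were higher in sP, among them Mobp (0.34) and Ermn (0.40). The microglial receptor P2ry12 differed by 0.69 ± 0.08 in HAD2/LAD2, with Cx3cr1 at -0.24, and the cholinergic choline transporter Slc5a7 by -0.36. Gfap, the astrocyte filament, was higher in AA (0.92 ± 0.17) and in sP (0.52 ± 0.16), with Aif1 at 0.32 in AA/ANA on 1 of 2 probe sets, the other having the opposite sign. Of other astrocyte genes, Slc1a3 differed by 0.79 in HAD2/LAD2 and -0.40 in sP/sNP, in each case called on 1 of 3 probe sets with 1 of the others of opposite sign. In HAD1/LAD1 Slc1a2 differed by -0.38 on 1 of 2 probe sets, the other of opposite sign, and oligodendrocyte Mobp by -0.44 on 1 of 3, of which 2 had that sign. Aldh1l1 differed by 0.22 in sP/sNP. In P/NP the microglial gene Laptm5 differed by -0.33 and was the only listed gene called there with all arrays.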
